A study of Mus musculus with 18 samples.

Results

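Exon-intron circles are here the circular RNAs of adult mouse testis with the annotation type exon_intron in the deposited circular RNA table. The name speaks of exon and intron sequence inside the circle, and the sources used here do not define it. The rule took every row of that type. It gave 752 of the 7391 circles in the table (10.2%), and they held 5556 of the counts, 5.63% of all circle counts. The counts come from 3 libraries of wild-type mice and 3 of mice with a knock-in allele of Taf7l (the labels write "konckin"), all of strain C57BL/6. Total RNA was taken from frozen whole testis with Trizol and sequenced after a stranded library preparation. The labels do not state which change the knock-in allele carries, nor whether each library is a separate mouse, so the p-values below speak of the spread between these libraries only. Libraries of pachytene spermatocytes and of round spermatids also belong to the study and were not analysed here.

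A circular RNA forms when the splicing machinery joins a downstream 5′ splice site (a donor, where an intron begins) back to an upstream 3′ splice site (an acceptor, where an intron ends). This back-splice closes the stretch between them into a ring with no free ends, which resists the enzymes that degrade RNA from its ends. When every intron inside the ring is removed the circle is exonic, and when intron sequence stays inside it the circle is of the exon-intron kind. Human exon-intron circles from EIF3J and PAIP2 are known to stay in the nucleus, to bind the U1 small nuclear ribonucleoprotein and to support transcription of their own genes. Testis is a tissue rich in circular RNA. Taf7l, made mainly in germ cells, resembles Taf7, one of the proteins of TFIID that position RNA polymerase at promoters.

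The edges of a circle are where the sequence bears on how it was made, so windows around them are shown first. Each window has 30 bases, 12 outside the circle and 18 inside it, in the direction of transcription, read from the RefSeq promoter table (GRCm38.p6, the same assembly as mm10). Only edges that happen to lie near an annotated transcription start could be read. These were the 5′ edges of 31 exon-intron circles, at 24 positions, and the 3′ edges of 4. The capitals mark the 2 bases just outside the circle, which are AG at a usual acceptor and GT at a usual donor.

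The following 5′ edges were chosen because they belong to the most abundant circles that could be read, and the last pair because they lie 3 bases apart.
Ccl25, chr8:4327745-4327774, plus strand: tttgaaatctAGtgcacatttgcatatcaa
Gm21992, chr19:4793992-4794021, minus strand: ctggcctctcAGgtaattggcgttccgggt
Gm32828, chr12:7756195-7756224, minus strand: cctttcttccAGatcctgaagggaccacga
Mterf4, chr1:93306036-93306065, minus strand: tgttcctggcAGagaccatgcaaccgagta
Gm35998, chr8:19638916-19638945, minus strand: tcttcatttcAGggaaaacaactgccttca
Gm47977, chr13:49781320-49781349, plus strand: tgttgctctcAGcagggatcagttgctaga
Gm47977, chr13:49781323-49781352, plus strand: tgctctcagcAGggatcagttgctagaagc

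The 3 readable 3′ edges with the most counts are shown for the donor side, where the capitals follow the 18 bases inside the circle.
Zfp689, chr7:127448351-127448380, minus strand: gggtaacattccagagaaGTgagtgaaaaa
Rbks, chr5:31647709-31647738, minus strand: aaggctgtagacaccacgGTaggtttcaaa
Fars2, chr13:36207729-36207758, plus strand: tctcgtttatgattcaagGTaagtttgaca

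All 24 readable 5′ edge positions had AG just outside the circle, and all 4 readable 3′ edge positions had GT there. The exonic circles gave the same result, with AG at 40 of 40 positions and GT at 10 of 10. On the same strand AG stood at 7.69% and GT at 4.98% of all positions in the 32851 promoter windows. The 2 letters are so short that nearly every whole window holds them (99.99% for AG, 99.98% for GT). Over circles of all types AG stood at 73 of 73 readable 5′ positions and GT at 14 of 14 readable 3′ positions. The letters are thus not particular to exon-intron circles. A search for circles may itself require these letters, which was not tested. The pair of Gm47977 edges is an acceptor with AG repeated 3 bases on. The circle from the first of them had 2 counts, both in knock-in library 3, and the circle from the second had 4, which were 1 in wild-type library 2 and 3 in wild-type library 3.

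Exon-intron circles were scarcer than exonic ones. Their median was 4 counts summed over the 6 libraries, against 6 for the 5805 exonic circles, and their highest was 349 against 1773. The smallest sum in the table was 2 counts, and 200 exon-intron circles (26.6%) had just that, against 17.4% of the exonic ones. Counts were above 0 in all 6 libraries for 63 exon-intron circles (8.38%) and in a single library for 290 (38.6%). The corresponding shares of exonic circles were 16.2% and 25.9%. Within each library a detected exon-intron circle had 2.73 to 3.05 counts on average and a detected exonic circle 4.20 to 5.05. The means over libraries were 2.88 ± 0.114 and 4.54 ± 0.325 (SD, n = 6), and the exonic value was higher in 6 of 6 libraries, by 1.65 counts (exact paired permutation test over libraries, two-sided, p = 0.031, the smallest that 6 pairs can give). All libraries count the same set of circles, so this p speaks of the spread between libraries and not between circles. Only 8 exon-intron circles (1.06%) carried a circBase name in the table, against 3.76% of the exonic circles.

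A few circles stood far above the rest. The most abundant 12 held 19.2% of the members' counts, and 126 members (16.8%) had 10 counts or more. The leading circle came from Gm11520, a long noncoding RNA gene, and ranked 21 among all circles in the table. It joined 95332369 back to 95319177 on the plus strand of chromosome 11 (mm10), a span of 13193 bases of which the deposited spliced length kept 8478. Its counts were 60, 64 and 61 in wild-type testis against 38, 52 and 74 in knock-in testis. The raw wild-type counts lay close together and the raw knock-in counts enclosed them, and the genotypes overlapped in RPM too. The fitted log2 fold change, knock-in over wild type, was -0.36 ± 0.21 (SE; edgeR, unadjusted p = 0.0760, adjusted p = 0.979). The RefSeq model of Gm11520 ends at 95324593, inside the circle.

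Gm47977 gave the next circle (chromosome 13, 49784071 to 49787857, plus strand), with 25, 18 and 15 counts in wild-type testis against 26, 22 and 29 in knock-in testis. In raw counts knock-in library 2 fell within the wild-type range. Ccl25, a chemokine known for drawing lymphocytes to thymus and gut, gave a circle from 4327757 to 4336526 on chromosome 8 with 27, 12 and 15 counts in wild-type testis against 17, 7 and 16 in knock-in testis. Wild-type library 1 was the highest and the other 5 overlapped. No exonic circle came from Ccl25, and its linear RNA was low, at 3.35 FPKM in wild-type testis against 4.21 in knock-in testis (means of 3 libraries, FPKM being counts per length and depth as the authors give them). Neither circle passed the test (log2 fold changes 0.25 ± 0.31 and -0.58 ± 0.38, SE, edgeR, adjusted p = 0.979 for each).

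Vwa8, a mitochondrial ATPase gene, gave a circle of 47937 bases with a spliced length of only 933 (chromosome 14, 79008786 to 79056722). Its counts were 17, 10 and 14 in wild-type testis against 12, 10 and 11 in knock-in testis, and the groups overlapped. Zranb1 encodes a deubiquitinase. Its main circle (chromosome 7, 132948044 to 132950435) is the most abundant of the 8 with a circBase name. Its counts were 22, 7 and 13 in wild-type testis against 5, 11 and 14 in knock-in testis, so that each genotype held both high and low libraries. A further Zranb1 circle starts at the same base and ends at 132960734. It was chosen after its values were seen, and had 6, 5 and 5 counts against 0, 2 and 2, with no overlap.

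The other 7 of the leading 12 had 39 to 56 counts each. Dtnbp1 encodes dysbindin, of a complex that forms lysosome-related organelles, and its circle had 9, 11 and 4 counts in wild-type testis against 10, 9 and 13 in knock-in testis. The circle of Erbin, a scaffold protein, had 13, 5 and 5 counts against 5, 13 and 14. That of Nnt, the mitochondrial transhydrogenase, had 10, 3 and 6 against 17, 3 and 11. In all 3 the ranges crossed. Nxpe3 gave 3, 16 and 5 counts against 9, 6 and 12, and there a single wild-type library was the highest of all 6. The circle of Fer, a tyrosine kinase, was the longest of the 12, with a span of 69381 bases and 19936 in the spliced length, and had 5, 9 and 5 counts against 9, 10 and 8. Ankrd36 gave 7, 8 and 5 against 4, 6 and 9. Among the 12 leading circles the fitted log2 fold changes ran from -0.64 (Zranb1) to 0.55 (Nnt), and none passed the test (edgeR, adjusted p = 0.979 for all 12).

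**Figure D1:**
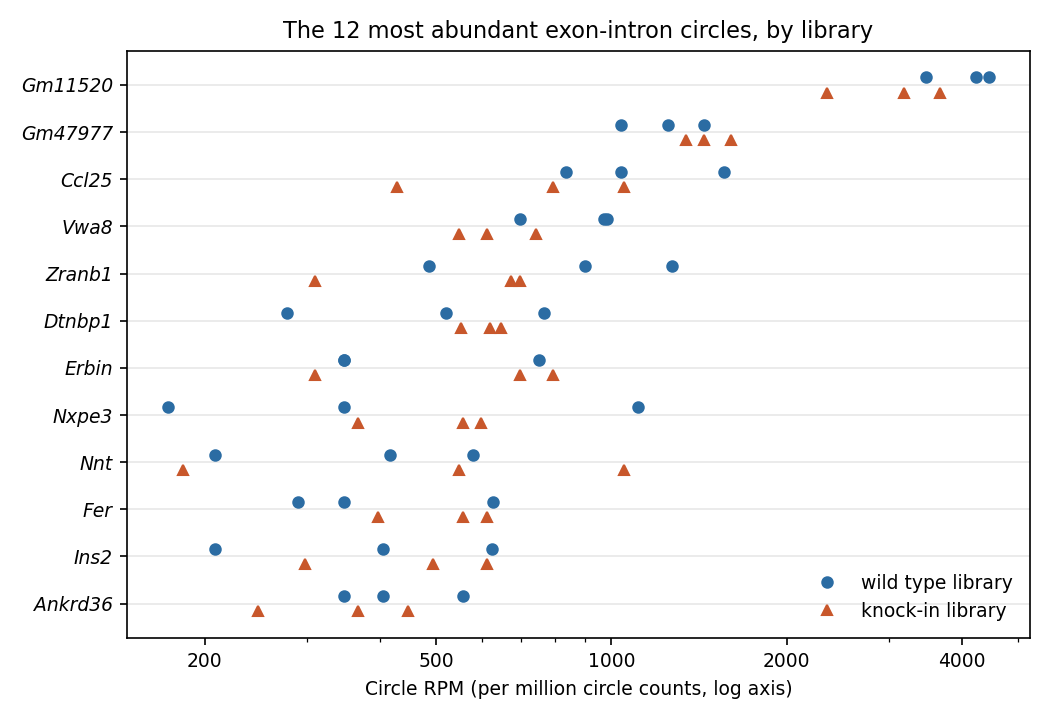
Circle RPM (counts per 1000000 circle counts of the library, log axis) of the 12 most abundant exon-intron circles, with 1 point per library, circles for wild type and triangles for knock-in. The genotypes' points interleave for most hosts, and Gm11520 lies apart at the top with 349 counts in all.

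The deposited lengths set exon-intron circles apart from exonic ones by more than their span. The median genomic span was 20744.5 bases for exon-intron and 14367 for exonic circles, while the median spliced length was 5517.5 against 783. The spliced length made up 43.1% of the span in the median exon-intron circle and 6.56% in the median exonic circle. How the authors defined the type and computed this length is not given in the sources used here, and the lengths do not show that a given intron was seen in the reads. The type and this length may rest on the same gene models, so the difference in length is given as a description of what the rule selected.

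Spliced length equalled the full span in 155 exon-intron circles (20.6%), so that the deposited length removes nothing from them. Their median span was 5697 bases. Most of them, 136 of 155, shared neither edge with an exonic circle. At the other end, 120 (15.96%) kept under 10% of their span, as Vwa8, Dtnbp1 (612 of 25965 bases) and Ankrd36 (774 of 28707) did. The bases left out of the length recur within a gene. All 5 circles of Gm47977 left out 1757 bases, 8 of the 10 circles of Gm32828 left out 401, and 4 of the 7 circles of Rbm46 left out 1330, although their spans differed. Of the 119 hosts with 2 or more exon-intron circles, 31 (26.1%) had a single left-out length in all of them. All 5 circles of Agbl4, a carboxypeptidase that trims glutamate chains from tubulin, left out 0 bases, with spans of 1266 to 45468.

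**Figure D2:**
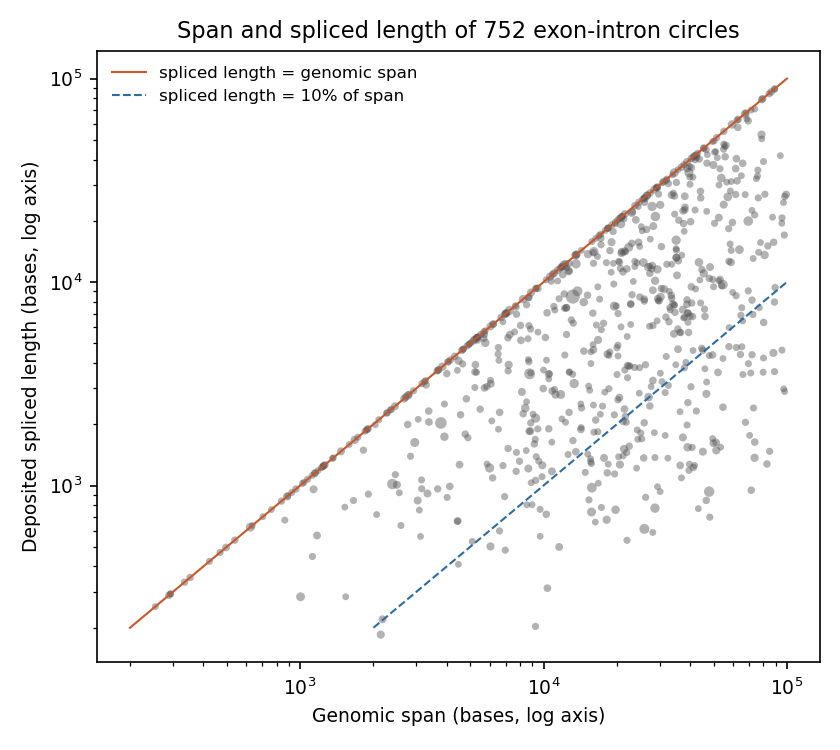
Genomic span against deposited spliced length of the 752 exon-intron circles (bases, both axes log), with point size growing with the summed counts. The solid line marks circles with nothing removed, on which 155 lie, and the dashed line marks 10% of the span, below which 120 lie.

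Some exon-intron circles had 1 edge in common with an exonic circle, and 1 circle had both. The type may itself rest on where the edges lie in the gene models, which was not tested. The shares of edges are therefore given as a description of what the rule selected. The 5′ edge alone was shared by 130 (17.3%) and the 3′ edge alone by 168 (22.3%), and 453 (60.2%) shared neither. Among the 473 circles whose host also gave an exonic circle, 298 (63.0%) shared just 1 edge. Both edges were shared by 1 circle, from Gm21992 on chromosome 19 (4784724 to 4794009), whose 5′ window is printed above. It had 3, 4 and 5 counts in wild-type testis against 6, 5 and 7 in knock-in testis. The genotypes met at 5 counts, and the fitted log2 fold change was 0.39 ± 0.72 (SE; edgeR, adjusted p = 0.979). Of the exonic circles, 13.3% shared both edges with other exonic circles, 29.1% the 5′ edge alone, 14.9% the 3′ edge alone and 42.7% neither.

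**Figure D3:**
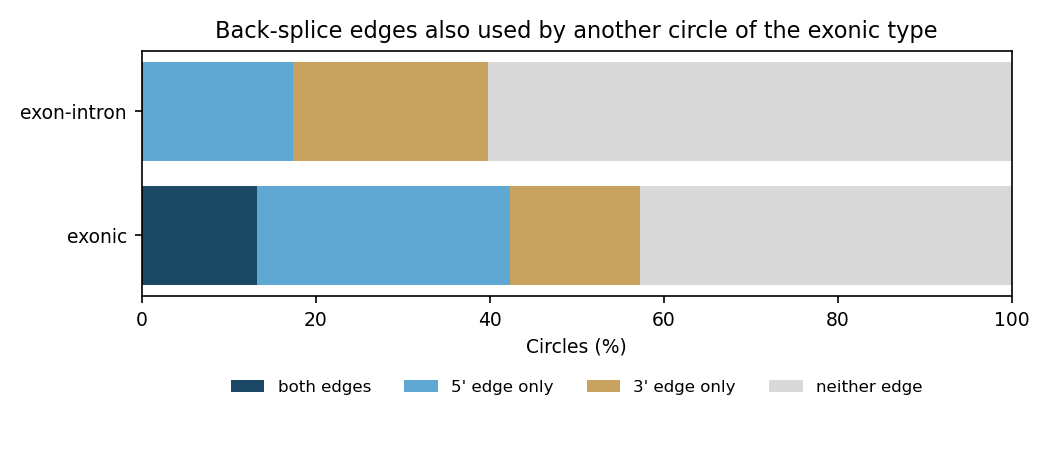
Share of circles (%) whose edges are also an edge of another circle of the exonic type, for the 752 exon-intron and the 5805 exonic circles. The bar segments are both edges, 5′ edge only, 3′ edge only and neither, and neither covers 60.2% of the exon-intron and 42.7% of the exonic circles.

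Several genes used an edge many times. There were 65 5′ edges with 2 or more exon-intron circles, 161 circles in all, and 50 such 3′ edges with 116 circles. The acceptor of Gm32828 at 7756212 on chromosome 12, in the window printed above, served 6 circles with spans of 5689 to 88849 bases. Together they had 8, 1 and 12 counts in wild-type testis against 5, 6 and 15 in knock-in testis, and library 3 of each genotype was the highest. The exonic circle of Gm32828 used the same acceptor. Agbl4 had 5 circles from a single 5′ edge (chromosome 4, 110478465). Rbm46, which encodes an RNA-binding protein needed in meiosis, had 5 from another (chromosome 3, 82866861). 3′ edges were shared likewise, by 6 circles of 4930414F18Rik (chromosome 16, 12671249) and by 6 of Gm10044 (chromosome 14, 7739459). The sequence at these edges could not be read. Circles with a common edge are not independent measurements.

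The 530 host genes mostly gave a single exon-intron circle (411 genes). The 8 with the most were 4930414F18Rik with 11 circles, Gm32828 with 10, Gm10044 and Rbm46 with 7 each, Mast4 with 6, and Gm47977, Nectin3 and Agbl4 with 5 each. Summed over its circles, 4930414F18Rik had 17, 20 and 22 counts in wild-type testis against 18, 18 and 16 in knock-in testis. Gm32828 had 11, 10 and 17 against 11, 7 and 19, and Gm10044 had 16, 10 and 9 against 14, 10 and 19. Both of the first pair are long noncoding RNA genes, and in all 3 hosts the genotypes overlapped. Rbm46 had 12, 9 and 7 against 7, 12 and 11. Nectin3, a cell adhesion protein that joins spermatids to Sertoli cells, had 8, 6 and 3 against 8, 13 and 3. Agbl4 had 5, 5 and 5 against 6, 3 and 3. These 3 protein-coding hosts also overlapped between genotypes. Mast4, a serine/threonine kinase, had 7, 12 and 3 against 1, 6 and 7, and Gm47977 had 30, 22 and 19 against 28, 25 and 33, again with overlap.

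Long noncoding RNA genes made up part of the hosts. RefSeq names matched 504 of the 530 hosts, of which 417 (82.7%) were protein-coding and 84 (16.7%) long noncoding, against 97.4% and 2.36% among hosts of exonic circles. The circles of long noncoding hosts numbered 126 and held 20.3% of the members' counts. Of 719 circles with a matched host, 208 (28.9%) reached past the RefSeq ends of the gene, against 0.865% of the exonic circles. Of these 208, 33 lay wholly outside it, such as the circle assigned to the insulin gene Ins2 (chromosome 7, 142735257 to 142764062), while RefSeq places Ins2 at 142678656 to 142679726. That circle had 7, 3 and 9 counts in wild-type testis against 8, 10 and 6 in knock-in testis and is given here as a position only. The table was made with gene models that are not stated in any source used here, and part of these positions may follow from models that RefSeq lacks, which was not tested.

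Linear RNA of the hosts was set beside the circles. Its median was 9.73 FPKM over the 421 hosts in the mRNA table (quartiles 3.86 and 29.1), 11.6 over 2485 hosts of exonic circles and 2.90 over all genes above 0. The mRNA table held 79.4% of the hosts of exon-intron circles and 97.3% of the hosts of exonic circles. The medians of the 2 types thus cover unlike parts of their hosts. On the 297 genes with both types, exonic circles had 24425 counts and exon-intron circles 3431. The median gene had 18.2% of these counts on the exon-intron type, which led in 46 genes and tied in 9. Rbm46 was among the 46, with 58 counts against 12, as were Zranb1 with 99 against 51 and Fancl, a ubiquitin ligase of the Fanconi anaemia pathway, with 37 against 6. Bbs9, of the ciliary BBSome, was at the other end with 17 against 2009. A further 233 genes, with 279 circles, gave the exon-intron type and no exonic circle.

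Lists of testis genes were looked up among the hosts. Flagellum and axoneme genes gave 12 exon-intron circles from 10 hosts (Cfap44, Cfap61, Dnah12, Dnah7a, Dnah7c, Hydin, Ift81, Spag16, Spata17 and Ttc21a), 90 counts in all, against 168 exonic circles with 3323 counts. Dnah7a, an inner-arm dynein of the axoneme, led with 7, 4 and 1 counts in wild-type testis against 5, 15 and 4 in knock-in testis, where knock-in library 2 was the highest and the rest overlapped. Meiotic genes gave 4 circles, against 32 exonic ones. Of the 4, 3 came from Hormad2, which marks unsynapsed chromosome axes, and 1 from the cyclin Ccna1. The Hormad2 circles all end at 4401445 on chromosome 11 and together had 10, 1 and 4 counts in wild-type testis against 1, 0 and 2 in knock-in testis. Wild-type library 1 was the highest there and the other 5 overlapped. Spermatid genes gave 1 circle each from Crem, a transcription factor of spermatids, and Fam71f1, against 29 exonic circles. Genes of the piRNA pathway and of TFIID gave 0, against 43 and 19 exonic circles. Among proteins that act in circle formation, Qk (quaking), which promotes circles, gave 2, and Ptbp2 and Adarb1 gave 1 each. That list gave 18 exonic circles. The whole table held 752 exon-intron and 5805 exonic circles, and no list was tested against these numbers.

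The genes of the best known human exon-intron circles had none here. Eif3j1 and Eif3j2 gave no circle of any type, and Paip2 gave 1 exonic circle with 6 counts. Linear Paip2 was at 73.1 ± 4.12 CPM (per 1000000 mRNA counts, TMM-scaled, SD, n = 3) in wild-type testis against 77.5 ± 1.87 in knock-in testis. A circle below the smallest sum in the table cannot be seen in it. Eif3j1 had 238, 266 and 265 counts in wild-type testis against 84, 105 and 4 in knock-in testis, where knock-in library 3 was far below the others. Its log2 fold change was -2.06 ± 0.60 (SE; edgeR, adjusted p = 0.170) and missed the threshold, and without knock-in library 3 the adjusted p was 0.0191. Eif3j2 is a near-identical copy, and how the authors assigned reads that fit both is not given in the sources used here, so the values of both are uncertain. Taf7l itself gave no circle. Its linear RNA stood at 29.0 ± 1.25 CPM in wild-type testis against 26.8 ± 0.745 in knock-in testis (log2 fold change -0.11 ± 0.08, SE, edgeR, adjusted p = 0.632).

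MicroRNA genes lie inside the span of 5 exon-intron circles. They are shown because a retained intron could carry them, while the counts at the edges do not tell whether the intron is there. Their mature sequences follow from RefSeq (GRCm38.p6), with bases 2 to 8, the seed that pairs with targets, in capitals. No seed is shared among them.
miR-350-3p, in Cep170, chr1:176772342-176772363: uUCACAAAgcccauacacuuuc
miR-350-5p, in Cep170, chr1:176772382-176772400: aAAGUGCAugcgcuuuggg
miR-3473e, in Rbks, chr5:31667296-31667316: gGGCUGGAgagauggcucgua
miR-7675-5p, in Smc6, chr12:11299887-11299908: cUUACGAAagaaugaagagcaa
miR-7675-3p, in Smc6, chr12:11299924-11299944: uGUUUCAUuuguucgugacuc

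All 3 genes lie on the strand of their circle. The Cep170 circle had 4 counts, the 2 Rbks circles 6 and 2, and the Smc6 circle 2, so each is rare. The spliced length of the Cep170 circle was 3788 of 37903 bases. In 1810053B23Rik the circle, with 2 counts, lies on the strand opposite to Mir802.

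Counts on exon-intron circles did not separate the genotypes as a group. Their share of the circle counts was 5.94%, 5.82% and 5.49% in wild-type testis against 5.38%, 5.45% and 5.65% in knock-in testis. The exact binomial 95% intervals ran from 5.12% to 6.30% over the wild type and from 5.04% to 5.98% over the knock-in, counting error only. Wild-type library 3 lay inside the knock-in range, and the means were 5.75% ± 0.234 and 5.50% ± 0.142 (SD, n = 3 each). The difference of -0.25 percentage points was not separated from the spread between libraries (exact permutation test, two-sided, p = 0.2, where 3 against 3 can reach no less than 0.1). Relative to mRNA counts, the circles stood at 54.8, 45.1 and 45.4 counts per 1000000 in wild-type testis against 46.8, 47.2 and 53.1 in knock-in testis, with means of 48.4 ± 5.50 and 49.0 ± 3.51 (exact permutation test, two-sided, p = 0.8).

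The deepest library held the most exon-intron circles. The wild-type libraries held 337, 297 and 290 exon-intron circles and the knock-in libraries 305, 309 and 383, and knock-in library 3 also had the most circle counts of all 6 (20127, against 14381 to 17306 in the others). The means were 308 ± 25.4 and 332 ± 43.9 (exact permutation test, two-sided, p = 0.5). Thinned to 14381 circle counts each, the libraries held 316, 297 and 290 against 296, 299 and 346 (p = 0.6 by the same exact test). Without knock-in library 3 the unthinned difference turned from 24.3 to -1. In whole testis, fewer cells of a type and less RNA per cell cannot be told apart.

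**Figure D4:**
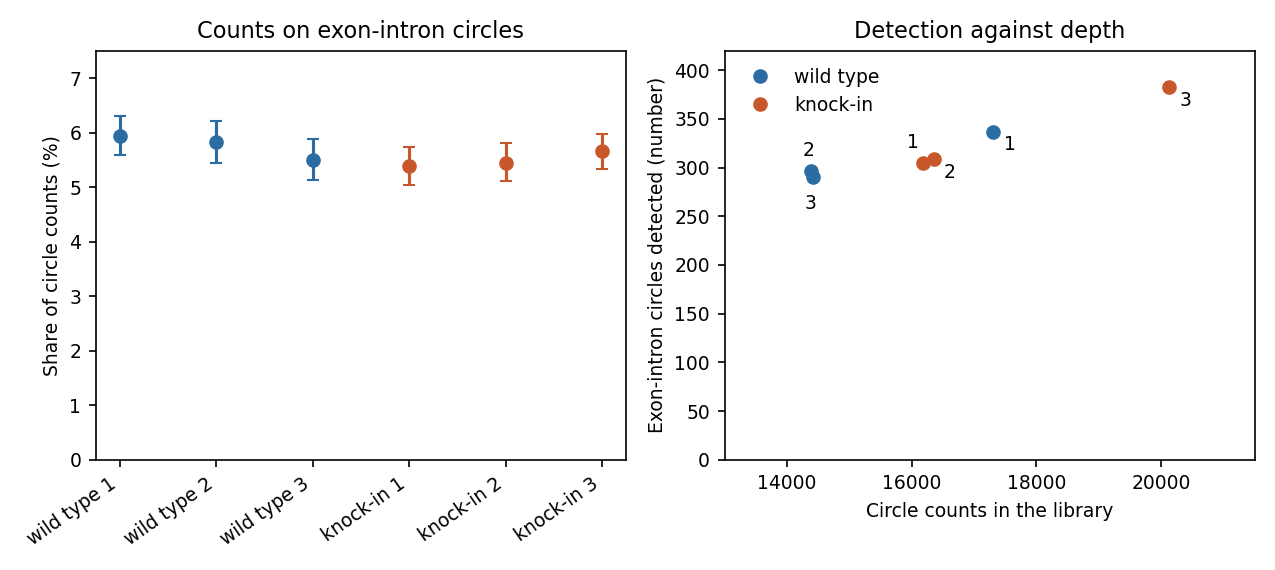
Left, share of each library's circle counts that fell on exon-intron circles (%), with exact binomial 95% intervals for counting error. Right, number of exon-intron circles detected against circle counts, with 1 point per library and its replicate number, where knock-in library 3 has both the most counts (20127) and the most circles (383).

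No single exon-intron circle was called between the genotypes. Of the 752, 320 (42.6%) had counts in at least 3 libraries and were tested, together with all other circles that passed this minimum. At an adjusted p under 0.05, edgeR called 0 of the 320, and 0% of all 3887 circles tested. The smallest adjusted p of an exon-intron circle was 0.979. At an unadjusted p under 0.05 there were 21 (6.56%), 13 higher and 8 lower in the knock-in, against 4.91% of all circles tested, and DESeq2 called 0, with 5 (1.56%) at an unadjusted p under 0.05, against 1.8% of all circles tested. The median log2 fold change was -0.08 over the 320, with 148 above 0 and 172 below, and 0.03 over all circles tested. The groups did not overlap, in scaled counts, for 32 exon-intron circles (10%), against 10.7% of all tested, with 15 higher (5.69% of all tested) and 17 lower (4.99% of all tested). The authors' deposited table gave 0 exon-intron circles at an adjusted p under 0.05 and 12 of 752 at an unadjusted one, against 1.93% of all circles in that table. Counts this low leave wide errors. Apart from counting error, the common biological coefficient of variation fitted by edgeR was 43.3% for circles, against 11.1% for mRNA genes.

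**Figure D5:**
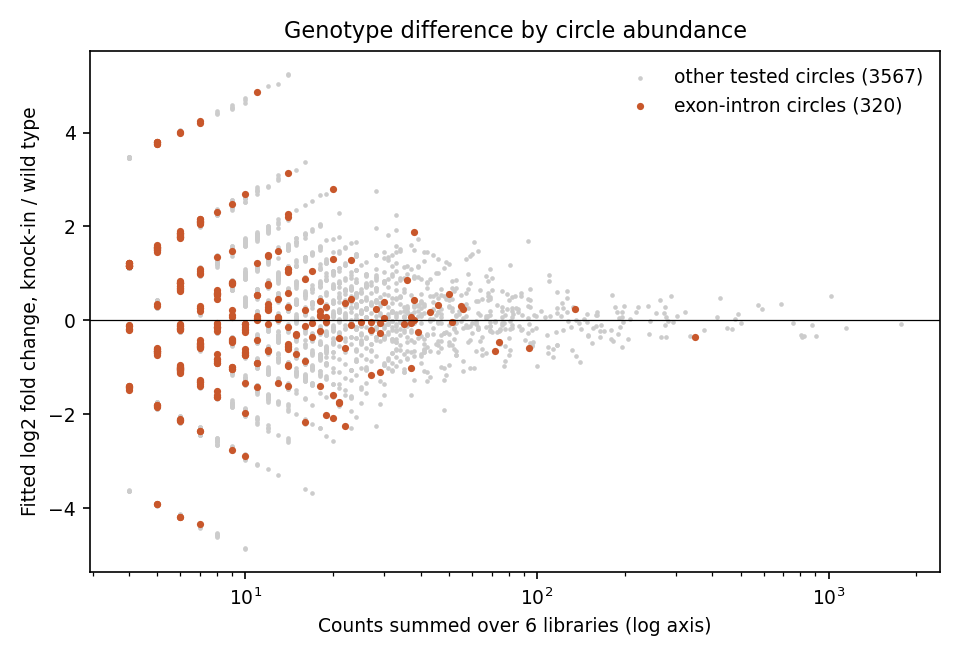
Fitted log2 fold change (knock-in over wild type) against the counts summed over 6 libraries (log axis) for the 320 tested exon-intron circles and the 3567 other tested circles. The spread narrows as counts grow, and the bands at the left come from small whole-number counts.

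The circles at the ends of the fitted range were all thin. The 8 with the largest positive fitted fold changes had 0 counts in every wild-type library. Among them a circle of Gm10044 (chromosome 14, 7739459 to 7776812) had 2, 6 and 3 counts in the knock-in libraries, and that of Ahcyl2, a relative of a protein that binds inositol trisphosphate receptors, had 3, 2 and 2. Hibadh, an enzyme of valine breakdown, had 3, 1 and 3, and Pola1, the catalytic subunit of DNA polymerase alpha on the X chromosome, had 3, 1 and 2. Gm32828 had 1, 2 and 3, Vps13b had 3, 1 and 1, and Mgat4e and 1700101O22Rik had 2, 2 and 1 each. In these 8 the knock-in libraries held 1 to 6 counts each, and none was called.

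Of the 8 with the largest negative fitted fold changes, 5 were at 0 in every knock-in library. In the wild-type libraries Sec22a, a vesicle trafficking protein, had 5, 1 and 1 counts, Gm35998 1, 2 and 3, and Shoc2, a scaffold of the Ras pathway, 1, 4 and 1. Pafah2 and Magi2 had 2, 1 and 2 each. These are the 5 with no knock-in count. Gm13938 had 3, 6 and 0 counts in the wild type against 1, 0 and 0, Tex2 2, 2 and 4 against 1, 0 and 0, and Lin28b, which blocks maturation of let-7 microRNAs, 4, 0 and 2 against 0, 0 and 1. No fold is given for any of these, since both genotypes lay near the floor of 3 counts.

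Exon-intron circles at 0 in all libraries of one genotype and above 0 in all of the other numbered 15 of 320 (4.69%), 10 of them at 0 in the wild type, against 2.73% of all circles tested. The largest had 11 counts. Such circles met the minimum of 3 libraries only through the genotype that held counts. The shares are therefore a description and no support for a genotype difference. A test on the deposited RPM values, limma on log2(RPM + 1), called exactly these 15 and no other exon-intron circle, and called 106 of all circles. With the same counts edgeR gave no adjusted p under 0.979 for an exon-intron circle.

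A few circles with more counts were unevenly spread, and are named here after their values were seen. The circle of Kiz, a protein that stabilizes centrosomes, had the lowest unadjusted p of the 320 (chromosome 2, 146889021 to 146902622). It had 1, 2 and 4 counts in wild-type testis against 12, 4 and 15 in knock-in testis, and the raw counts met at 4. Its log2 fold change was 1.89 ± 0.69 (SE; edgeR, unadjusted p = 0.00595, adjusted p = 0.979). A circle of E230029C05Rik had 0, 0 and 2 counts against 11, 2 and 5. In the opposite direction a circle of Fbxw7, a ubiquitin ligase subunit, had 8, 8 and 2 counts against 0, 1 and 3. Each of these groups met or overlapped in raw counts, and no adjusted p was under the threshold.

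Few hosts were called by their linear RNA. Of 410 host genes tested, edgeR called 2, both higher in the knock-in, against 0.982% of the 15787 mRNA genes tested (0.88% higher and 0.101% lower). Ubtd2, a ubiquitin domain protein, was at 19.1, 17.9 and 15.2 CPM in wild-type testis against 29.96, 31.5 and 27.6 in knock-in testis, with no overlap. Its log2 fold change was 0.77 ± 0.11 (SE; edgeR, adjusted p = 0.0143). Samd4b, an RNA-binding repressor of translation, was at 175, 168 and 147 CPM against 222, 237 and 208, again with no overlap (0.44 ± 0.08, SE, edgeR, adjusted p = 0.0321). Each gave 1 exon-intron circle with 4 counts, too few to compare. The median log2 fold change over the 410 hosts was -0.03, and 0.00 over all genes tested. DESeq2 called 10 of 365 hosts, 5 of them higher, against 4.22% of all genes with an adjusted p from it, 3.41% being higher. Samd4b missed the threshold with any of the 6 libraries left out (edgeR, adjusted p from 0.0550 to 0.117). Ubtd2 missed it without wild-type library 2, wild-type library 3 or knock-in library 3 (edgeR, adjusted p from 0.0634 to 0.0653), where edgeR called 0 hosts, and 1 host was called without knock-in library 1. The share of all genes called with a library left out is not given here.

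Among hosts of the leading circles, linear RNA and circle were set side by side. Linear Vwa8 was at 34.9 ± 2.79 CPM in wild-type testis against 42.6 ± 2.56 in knock-in testis (log2 fold change 0.29 ± 0.09, SE, edgeR, adjusted p = 0.195), where its leading circle had -0.47 ± 0.43. Linear Nxpe3 was at 21.8 ± 1.99 CPM and 17.1 ± 0.853 (-0.35 ± 0.10, SE, edgeR, adjusted p = 0.176), where its circle had -0.03 ± 0.53. Linear Zranb1 was at 126 ± 2.53 and 118 ± 11.9 CPM (-0.09 ± 0.07, SE, edgeR, adjusted p = 0.673), where its circle had -0.64 ± 0.44. For Erbin the log2 fold changes of linear RNA and of the leading circle were -0.24 and 0.31 (edgeR), and for Ccl25 0.30 and -0.58. They were -0.06 and 0.55 for Nnt, and 0.09 and 0.24 for Dtnbp1. Fer had 0.007 and 0.34, and Ankrd36 had -0.05 and -0.25. None of these hosts or circles was called, and whether circle and host differ in their change was not tested.

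Genes known to act in circle formation, export or decay, and core splicing factors, were followed as a list of 63, of which 62 were tested. edgeR called 1, higher in the knock-in, against 0.982% of all genes tested. This was Hnrnpm, a splicing regulator, at 57.7, 58.8 and 55.1 CPM in wild-type testis against 74.1, 72.5 and 69.9 in knock-in testis, with no overlap. The log2 fold change was 0.33 ± 0.06 (SE; edgeR, adjusted p = 0.0442). It missed the threshold with any of the 6 libraries left out (edgeR, adjusted p from 0.0735 to 0.192) and with the replicate block (0.0543). Snrnp70, the 70K protein of the U1 particle that exon-intron circles are known to bind, was at 15.2, 20.5 and 22.2 CPM against 26.7, 35.9 and 27.9. The knock-in libraries all lay above the wild type, and the adjusted p was 0.101 (0.64 ± 0.16, SE, edgeR). With the replicate block Snrnp70 was called in place of Hnrnpm (adjusted p = 0.0493). At an unadjusted p under 0.05 there were 12 of the 62 (19.4%), 11 of them higher, against 12.9% of all genes tested, 7.83% being higher. The median log2 fold change of the list was 0.04. Neither gene gave an exon-intron circle.

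The libraries held 14381 to 20127 circle counts and 17431309 to 21446420 mRNA counts. Markers of spermatogonia, spermatocytes, spermatids and of Sertoli, Leydig, myoid, endothelial and blood cells were all present. Of the 4 epididymis markers Lcn5 and Lcn8 were at 0, and the list's summed level ran from 0.09 to 6.89 FPKM in the wild type and from 0.08 to 5.15 in the knock-in. The spermatocyte markers summed to 2626 to 2733 FPKM in the wild-type libraries and to 2288 to 2567 in the knock-in libraries, with no overlap, and none of the 5 was called. The 5 genes ran from 10.2 to 2367 FPKM, so most of this sum came from 1 gene and does not speak for the list. The part of these markers in the results above was not tested. Of the marker genes 1 was called, the protamine Prm2 (log2 fold change 0.53 ± 0.09, SE, edgeR, adjusted p = 0.0289). The summed level of its list, elongating spermatids, ran from 10241 to 12278 FPKM in the wild type and from 10329 to 12499 in the knock-in.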

How the data were processed

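The deposited circular RNA table gives, per the file headers, position, strand, annotation type, spliced length, host gene, whole-number counts and RPM per library, with the authors' signal mean per genotype, log2 ratio, p-value and adjusted p-value. The deposited mRNA table gives counts and FPKM per library made by the authors. Coordinates are on mm10, the build named in the submitters' processing notes. The sources used here name no aligner, circle caller or gene annotation, and do not say which test the authors ran. The members are all rows of type exon_intron. Library sizes were all circle counts in the table. Counts were tested with edgeR 4.0.16 (quasi-likelihood, TMM, limma 3.58.1, R 4.3.3), 3 libraries against 3, two-sided, with Benjamini-Hochberg adjustment over all circles above 0 in at least 3 of 6 libraries, or over all mRNA genes kept by filterByExpr (minimum count 10, minimum total 15). A feature was called at an adjusted p under 0.05. The SE beside an edgeR log2 fold change was derived from the test. It is the absolute log2 fold change divided by the square root of the quasi-likelihood F statistic. The fits were tested on simulated data, and what size of change they could call is not given here. DESeq2 1.42.0 and limma on log2(RPM + 1) were alternatives. Values of 1 per library were compared by exact permutation tests.

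An edge counts as shared when the chromosome, strand and base are the same. Hosts were matched to RefSeq (GRCm38.p6) by symbol and chromosome, for 719 of the 752 circles. The members and gene lists were chosen with earlier results of these data known. The text names the 12 circles with the most counts, the 8 largest fitted rises and falls, all called circles, up to 8 at 0 in a whole genotype, the 8 hosts with the most circles, Eif3j1, Eif3j2 and Paip2, and called genes of the circle-formation list. Others are said to be chosen after their values were seen or serve as examples of a class.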

Additional observations from a re-analysis of the deposited data

How the results depend on the processing

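Every exon-intron circle stayed uncalled in edgeR without scaling, with mRNA library sizes as offset, with other count filters, with any of the 6 libraries left out and in DESeq2, while limma on log2(RPM + 1) called 15. Of the 12 leading circles, 5 changed sign in some alternative. These were Nxpe3 (0.075 with mRNA library sizes as offset, 0.13 with the replicate block, 0.29 in limma on log2(RPM + 1), and -0.42 to 0.98 with a library left out), Dtnbp1 (-0.029 to 0.58), Nnt (-0.0094 to 1.02), Ins2 (-0.13 to 0.59) and Ankrd36 (-0.46 to 0.016), the last 4 with a library left out, all as log2 fold changes. The cause was not tested. DESeq2 called 10 of 365 hosts, 5 of them higher, and 4 of 56 circle-formation genes, all higher (Hnrnpm, Snrnp70, Ewsr1 and Hnrnpll), against 4.22% of all genes with an adjusted p from it (3.41% higher). With a library left out, edgeR called 0 to 2 hosts and 0 circle-formation genes, from fewer libraries. The share of counts differed by -0.39 to -0.16 percentage points with a library left out and by -0.16 without the leading circle. The detected number differed by -1 to 38.8 circles and the counts per 1000000 mRNA counts by -1.43 to 3.76, the latter below 0 without wild-type library 2 (-1.06), wild-type library 3 (-0.93) or knock-in library 3. Counts per detected circle differed between types by 1.57 to 1.71 with a library left out, where the exact p was 0.0625, the smallest that 5 pairs can give. Same-numbered libraries did not deviate together over 3887 circles (r of -0.01, 0.01 and 0.01, against -0.03 to 0.01 in differently numbered pairs). Over mRNA genes their r was weak but above 0 (0.14, 0.08 and 0.03, against -0.12 to 0.05 in differently numbered pairs). The labels do not call the replicate numbers pairs, so they were not taken as such, and the replicate block is an alternative. With the replicate block edgeR called 0 exon-intron circles, 2 hosts and 1 circle-formation gene. The share of all genes called with this block or with a library left out is not given here. The counts of hosts and circle-formation genes in those fits therefore have no background beside them. With the replicate block the exon-intron share of counts differed by -0.25 percentage points (exact permutation test by sign flips, p = 0.5, where 3 pairs can reach no less than 0.25). Depth limits these results: 200 of the 752 circles have 2 counts.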
